A study of Homo sapiens with 6 samples.

Results

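The RNA-binding proteins examined here are 10 regulators of alternative splicing linked to the epithelial-mesenchymal transition: ESRP1, ESRP2, RBM47, QKI, RBFOX2, MBNL1, MBNL3, PTBP1, HNRNPM and SRSF1. They were taken by gene symbol, and all 10 were found among the 27264 gene rows of the count table. The libraries were made from 3 clones of DLD-1, a line of epithelial cells from a human colorectal cancer, labelled ZEB2 WT2, WT5 and WT37. Each clone was sequenced once with DOX (doxycycline) and once without it, so there were 3 libraries with DOX and 3 libraries without DOX. The 6 libraries held 5440093 to 7164426 reads in genes. All libraries shared the DLD-1 background, a ZEB2 WT label and the tag TR21, which the labels do not explain, and the sources used here do not give the dose and duration of DOX. No library paired DOX with a line that lacked the ZEB2 label, so an effect of DOX on its own cannot be told apart from one of ZEB2. Each line is 1 clone, and the clones serve as the replicates, so the spread within a group is a spread between clones.

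Many genes are read into more than 1 messenger RNA because exons can be kept or left out, and RNA-binding proteins steer that choice by binding near the exon. When epithelial cells turn mesenchymal, a set of exons switches. ESRP1, ESRP2 and RBM47 are known for keeping the epithelial exon choice, and QKI and RBFOX2 for the mesenchymal one. ZEB2 and its relative ZEB1 are DNA-binding repressors of epithelial genes, and the ESRP genes are known ZEB targets in other human cells. ZEB proteins also repress the miR-200 microRNAs, which in turn target the ZEB and QKI messages. The library kit samples only the 3' ends of messages, so the counts show how much of each regulator's message there was, and exon choice itself was not measured.

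The miR-200 family and its matches in the QKI message are shown because QKI, of the 10 regulators, had the DOX difference with the smallest unadjusted p. The mature sequences below are from RefSeq on GRCh38.p14, written 5′ to 3′, with the seed, bases 2 to 8, in capitals. The first 3 share one seed and the last 2 share another, and a single base separates the seeds.
hsa-miR-200b-3p (chr1:1167160-1167181, plus strand): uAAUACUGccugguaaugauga
hsa-miR-200c-3p (chr12:6963742-6963764, plus strand): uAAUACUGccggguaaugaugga
hsa-miR-429 (chr1:1169055-1169076, plus strand): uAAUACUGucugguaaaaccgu
hsa-miR-200a-3p (chr1:1167916-1167937, plus strand): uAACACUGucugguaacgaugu
hsa-miR-141-3p (chr12:6964155-6964176, plus strand): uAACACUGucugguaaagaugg

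The longest annotated QKI 3′ UTR, 7886 bases in GENCODE 29 on GRCh38, held 3 copies of CAGTATT, the 7 letters that pair with the first seed, searched on the transcript strand. They are printed with their flanks and with the match in capitals.
QKI base 2305 (chr6:163573004-163573031, plus strand): aaaaacaatacCAGTATTtgatccagtt
QKI base 2524 (chr6:163573223-163573250, plus strand): gccttggttctCAGTATTatcattcttt
QKI base 2592 (chr6:163573291-163573318, plus strand): tttttttctgaCAGTATTatgtaatttt
The base number is the place of the first capital, counted from 1 at the start of the UTR. The same UTR held 2 copies of CAGTGTT, the letters that pair with the second seed, and since the motifs differ in 1 letter, no stretch can match both. Of 373 other genes with a 3′ UTR at least as long, 28 (7.51%) held 3 or more copies of CAGTATT in their first 7886 bases, and 222 (59.5%) held at least 1. For CAGTGTT, 105 of them (28.2%) held 2 or more copies. Over the first 1000 bases of the 3′ UTR of 10126 genes, 10.8% held CAGTATT and 13.0% held CAGTGTT, and QKI held neither in that stretch. Among the other regulators, MBNL3 also had 3 copies of CAGTATT, in 10349 bases, a count reached by 8.57% of the 140 other genes with a UTR at least as long. The ESRP2 and HNRNPM UTRs held neither motif, and the remaining regulators held 1 or 2 copies in all. A match is a description of the letters, mature microRNAs were not measured, and binding was not tested.

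None of the 10 regulators passed the threshold for a DOX difference, an adjusted p of 0.05 from edgeR's quasi-likelihood test with Benjamini-Hochberg adjustment over 11732 genes. The background has to be read beside that: in the same test 0 of the 11732 genes passed (0%), while 709 genes (6.04%) had an unadjusted p under 0.05. DESeq2 called 57 genes, none of them a regulator. With the clone as a block, edgeR called 152 genes (1.3%), 77 higher (0.656%) and 75 lower (0.639%) with DOX, and again none of the 10. The groups of libraries overlapped for all 10 regulators, whereas the levels of 11.1% of the genes tested did not overlap between groups (6.55% above and 4.56% below with DOX). Adjusted p-values below are from edgeR's test without the block unless the block is named, and fold changes are with DOX over without DOX. Levels are reads of a gene per 1000000 reads in genes (CPM). In bulk RNA a lower level can stand for fewer cells with the message or for less message per cell, and these cannot be told apart.

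The libraries carried the markers of the labelled epithelial type. All 8 epithelial markers were tested, and their summed level was 4649 to 5898 CPM with DOX and 6913 to 8396 CPM without DOX. With the clone as a block, edgeR called EPCAM and KRT18 lower with DOX (log2 fold changes of -0.73 and -0.69, adjusted p = 0.0230 and 0.0135) and CDX2, an intestinal transcription factor, higher (0.42, adjusted p = 0.0464). Of the 8 markers, 7 were lower with DOX in every clone, against 13.8% of all genes tested. For the same 7, all libraries with DOX were below all without, against 4.56% of all genes tested. VIL1 was at few reads, with 0.843 to 4.10 CPM with DOX and 6.62 to 13.1 CPM without DOX. Of 7 mesenchymal markers only FN1 and ZEB2 had enough reads to be tested. The summed level of all 7 was 9.46 to 19.4 CPM with DOX and 11.2 to 15.9 CPM without DOX, and TWIST1 was at 0. FN1, the largest part of each sum, was lower with DOX in every clone. ZEB2, ZEB1 and VIM were higher with DOX in every clone, the last 2 at few reads, while CDH2 and SNAI2 were mixed. ZEB2 itself averaged 2.52 ± 1.08 CPM with DOX and 0.966 ± 0.630 CPM without DOX (SD, n = 3 each), with an adjusted p of 0.780 in edgeR's test without the block. With the clone as a block, the log2 fold changes were -0.56 for FN1 and 1.38 for ZEB2, and neither was called. The labels do not describe a ZEB2 construct. With a 3′ end kit, a construct without the gene's own 3′ end could be missed by the ZEB2 row. The ZEB2 level may therefore leave out part of the ZEB2 message. The fibroblast list summed to at most 1.83 CPM in any library, with COL1A2 at 0, and the immune and endothelial list to 4.23 to 11.03 CPM, with PECAM1 at 0.

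The regulators covered a wide span of levels, and together they took 0.237% to 0.278% of the reads in genes. HNRNPM was the most abundant at 794 CPM on average over the 6 libraries, followed by SRSF1 at 686 CPM and PTBP1 at 628 CPM. The ranges of these 3 genes overlapped between neighbours. MBNL1 followed at 229.5 CPM, clear of the genes above and below it in every library. RBFOX2 averaged 94.8 CPM and RBM47 75.6 CPM, with overlapping ranges. ESRP2 at 24.6 CPM, QKI at 21.1 CPM and MBNL3 at 13.4 CPM also overlapped between neighbours, and ESRP1 came last at 3.21 CPM, below the lowest MBNL3 library. With a 3′ end kit a fragment comes from a transcript end, so transcript length should enter these levels little. The annotated 3′ end of a gene and its overlap with other genes can still change its count, and their part in this order was not tested.

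**Figure D1:**
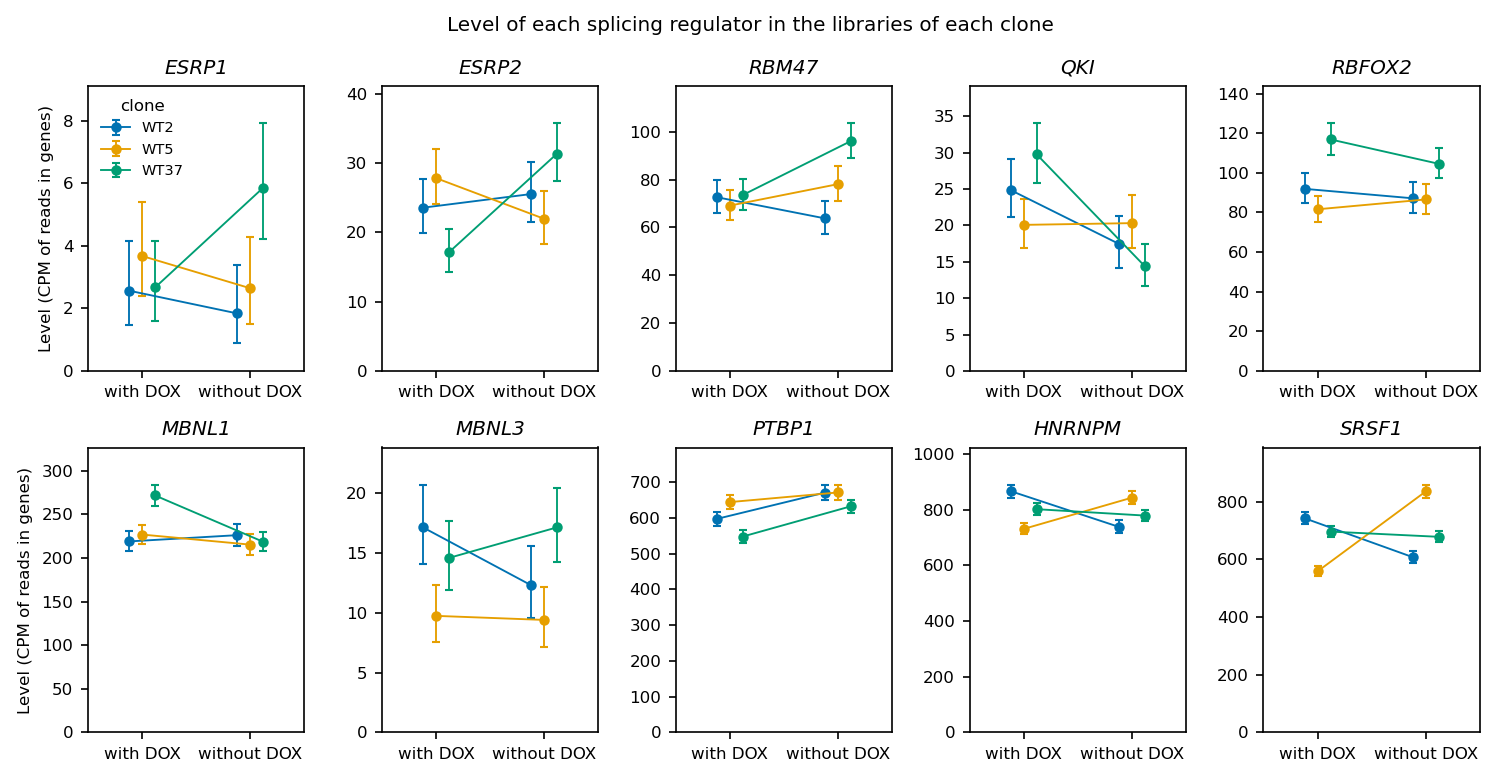
Level of each of the 10 regulators in every library, in CPM on linear axes from 0 that differ between panels (points: libraries, with DOX left of without DOX; bars: exact 95% counting intervals; lines: the same clone). The groups overlap for every gene, and the span runs from ESRP1 at 1.84 to 5.86 CPM up to HNRNPM at 731 to 867 CPM.

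ESRP2 (ENSG00000103067, chr16:68229111-68238102, minus strand, GRCh38) was the main ESRP message in these counts. ESRP1 (ENSG00000104413, chr8:94641074-94707466, plus strand), its close relative, gave 9.82%, 11.7% and 13.5% of the reads of the pair in WT2, WT5 and WT37 with DOX, and 6.71%, 10.7% and 15.7% without DOX. The exact binomial 95% intervals of these shares reached from 3.27% to 20.7% over the 6 libraries, and they cover counting error only. ESRP1 had 16, 26 and 19 reads in WT2, WT5 and WT37 with DOX (2.57, 3.68 and 2.67 CPM), and 10, 16 and 42 reads without DOX (1.84, 2.64 and 5.86 CPM). The WT37 library without DOX was the highest of the 6 and the WT2 library without DOX the lowest, so the libraries with DOX lay inside the range of the others. The fitted difference was -0.26 (SE 0.43, 95% interval -1.22 to 0.70, adjusted p = 0.982), so the interval left room for a difference of either sign at this depth.

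ESRP2 stood at 23.6, 27.9 and 17.1 CPM in WT2, WT5 and WT37 with DOX, and at 25.6, 22.0 and 31.4 CPM without DOX. Both the lowest and the highest of the 6 libraries were those of WT37, the lowest with DOX and the highest without. Its fitted difference was -0.23 (SE 0.22, 95% interval -0.72 to 0.26, adjusted p = 0.969). Within WT37 the log2 ratio of ESRP2 was -0.87, with an exact 95% counting interval of -1.20 to -0.55, while in WT5 it was 0.34 (0.02 to 0.67) and in WT2 -0.12 (-0.46 to 0.23). ESRP1, at far fewer reads, was also lower in WT37, with -1.14 (-2.00 to -0.32), and stood at 0.48 in both WT2 and WT5, where the intervals included 0. Each of these ratios compares 1 library with 1 library, so they carry no test of DOX within a clone. Without WT37 the fitted differences were 0.46 for ESRP1 and 0.10 for ESRP2, the opposite sign to that with all clones. The 8 epithelial markers had median within-clone log2 ratios of -0.70 in WT2, -0.17 in WT5 and -0.88 in WT37, so the clone with the lowest ESRP2 ratio also had the lowest marker ratio, and the part of this in the ESRP2 result was not tested. Of the last 500 exonic bases of ESRP2, 29.8% lie opposite NFATC3 exons, and NFATC3 had 1 to 7 reads per library. Of the last 500 exonic bases of NFATC3, 77.2% lie opposite another gene, AC020978.5. The strand setting of the counts is not given, so how reads in the shared stretch were assigned cannot be told.

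RBM47 (ENSG00000163694, chr4:40423267-40630875, minus strand) is an RNA-binding protein that favours epithelial exons and is related to the editing cofactor A1CF. It was measured at 72.7, 69.1 and 73.6 CPM in WT2, WT5 and WT37 with DOX, and at 63.8, 78.1 and 96.2 CPM without DOX. The libraries with DOX lay close to each other and inside the spread of those without DOX, where WT2 was lowest and WT37 highest. The fitted difference was -0.18 (SE 0.15, adjusted p = 0.953). The WT37 ratio of -0.39 (counting interval -0.55 to -0.22) was the only one of its 3 ratios whose interval left out 0. In WT37, then, all 3 regulators known for the epithelial exon choice had counting intervals below 0, in 1 library against 1 library. The same held for 14% of all genes tested in that clone.

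QKI (ENSG00000112531, chr6:163414000-163578596, plus strand) encodes quaking, a KH-domain protein that promotes mesenchymal exon choices and the formation of circular RNAs. It had 155, 142 and 212 reads in WT2, WT5 and WT37 with DOX (24.9, 20.1 and 29.8 CPM), and 95, 123 and 103 reads without DOX (17.5, 20.3 and 14.4 CPM). Only WT5 kept the groups from separating, since its 2 libraries were level with each other between the other pairs. The mean was 24.9 ± 4.85 CPM with DOX and 17.4 ± 2.97 CPM without DOX (SD, n = 3 each). The fitted log2 difference was 0.48 (SE 0.20, 95% interval 0.04 to 0.92), with an unadjusted p of 0.0357 and an adjusted p of 0.780 in edgeR's test, which placed it at rank 535 among the genes tested. The clone block left it at 0.48 with an adjusted p of 0.284.

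Within clones, the QKI ratio was 0.51 (counting interval 0.13 to 0.89) in WT2, -0.02 (-0.38 to 0.34) in WT5 and 1.05 (0.70 to 1.40) in WT37. In a blocked edgeR fit of WT2 and WT37 alone, QKI was higher with DOX by 0.74 (SE 0.17, adjusted p = 0.0275), and it was the only regulator of the 10 to pass there. Leaving out WT5 removes the clone in which QKI did not change, so a larger difference follows from that choice and is no separate evidence. That fit called 743 of 11893 genes (6.25%), 350 of them higher with DOX (2.94%), so a call is more common in it. Without WT37 the blocked difference was 0.23, with an adjusted p of 0.999. Set against the epithelial pair in the same library, there were 0.951, 0.637 and 1.504 QKI reads per ESRP read in WT2, WT5 and WT37 with DOX, and 0.638, 0.826 and 0.386 without DOX. WT37 thus held both the highest ratio, with DOX (counting interval 1.21 to 1.87), and the lowest, without DOX (0.304 to 0.486), while the WT5 ratio with DOX (0.512 to 0.789) overlapped the one without (0.645 to 1.06).

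**Figure D2:**
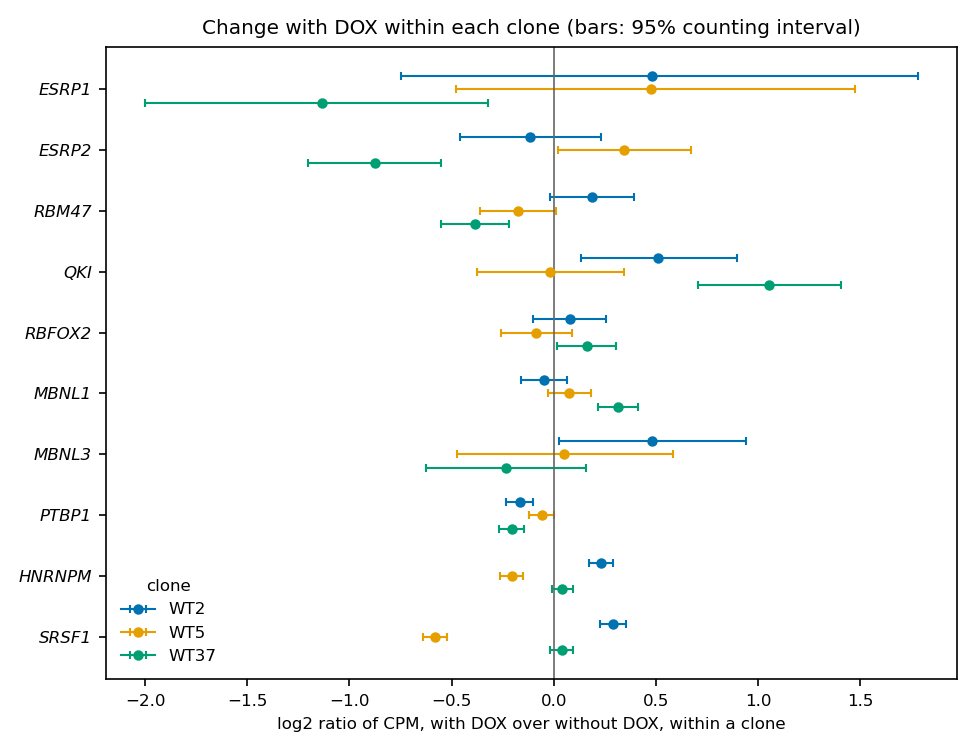
Log2 ratio of the level with DOX over that without DOX in each clone for the 10 regulators, with exact 95% counting intervals as bars. WT37 gives the largest QKI ratio (1.05) and the lowest ESRP1 and ESRP2 ratios (-1.14 and -0.87), and only PTBP1 lies below 0 in all 3 clones.

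RBFOX2 (ENSG00000100320, chr22:35738736-36028425, minus strand) binds a short RNA motif beside its target exons and takes part in mesenchymal splicing. Its levels were 91.9, 81.6 and 117 CPM in WT2, WT5 and WT37 with DOX, and 87.1, 86.6 and 105 CPM without DOX. WT37 was the highest clone in both conditions, and the groups overlapped. The fitted difference was 0.02 (SE 0.14, 95% interval -0.29 to 0.33, adjusted p = 0.997).

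The muscleblind proteins MBNL1 (ENSG00000152601, chr3:152243828-152465780, plus strand) and MBNL3 (ENSG00000076770, chrX:132369317-132489968, minus strand) are zinc finger proteins, best known for splicing changes during differentiation. MBNL1 stood at 219, 227 and 272 CPM in WT2, WT5 and WT37 with DOX, and at 226, 215 and 218 CPM without DOX. One library, WT37 with DOX, stood above the other 5, which lay between 215 and 227 CPM. The fitted difference of MBNL1 was 0.08 (SE 0.11, adjusted p = 0.980). MBNL3 was measured at 17.2, 9.76 and 14.6 CPM with DOX, and at 12.3, 9.42 and 17.2 CPM without DOX, in the same clone order. Both WT5 libraries of MBNL3 were below the other 4, whatever the condition, and the fitted DOX difference was 0.05 (SE 0.27, adjusted p = 0.996).

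PTBP1 (ENSG00000011304, chr19:797075-812327, plus strand) is the polypyrimidine tract-binding protein, mostly a repressor of exons. It was measured at 597, 644 and 548 CPM in WT2, WT5 and WT37 with DOX, and at 671, 671 and 633 CPM without DOX. It was the only one of the 10 regulators with 1 direction in all 3 clones, lower with DOX, but the WT5 library with DOX stood above the WT37 library without DOX, so the groups overlapped. Of all genes tested, 13.8% were lower and 21.3% higher with DOX in all 3 clones (35.1% in all), so 1 of 10 is no more than the background. The mean was 597 ± 48.2 CPM with DOX and 658 ± 22.2 CPM without DOX (SD, n = 3 each). The fitted difference was -0.18 (SE 0.13, 95% interval -0.46 to 0.11, adjusted p = 0.948), and with the clone block it was -0.18 (SE 0.09, adjusted p = 0.405). The WT2 ratio was -0.17, the WT5 ratio -0.06 and the WT37 ratio -0.21, and only the WT5 counting interval included 0.

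HNRNPM (ENSG00000099783, chr19:8444767-8489114, plus strand) favours skipping of variable CD44 exons in human breast cells. Its levels were 867, 731 and 802 CPM in WT2, WT5 and WT37 with DOX, and 739, 844 and 779 CPM without DOX. WT2 was higher with DOX and WT5 lower, and the groups overlapped throughout. The fitted difference was -0.01 (SE 0.12, adjusted p = 0.997). SRSF1 (ENSG00000136450, chr17:58003360-58007346, minus strand), an SR protein and known oncogene that promotes skipping in the receptor gene MST1R (RON), stood at 742, 558 and 696 CPM with DOX, and at 608, 836 and 678 CPM without DOX, in the same clone order. Again WT2 was higher and WT5 lower with DOX, and WT5 held both the lowest and the highest of the 6 libraries. Its fitted difference was -0.12 (SE 0.15, adjusted p = 0.976). Of the last 500 exonic bases of SRSF1, 41.8% are shared on its strand with AC015813.2, a gene with no row in the count table. HNRNPM has 2 named pseudogenes and SRSF1 has 1, and reads that fit several places were not counted.

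In all, 15 of the 30 within-clone counting intervals left out 0, 7 of them in WT37, 5 in WT2 and 3 in WT5. Of all genes tested, the interval left out 0 for 38.4% in WT37, 26% in WT2 and 29.5% in WT5, and genes with more reads have narrower intervals, so nothing particular to the regulators is read from their count. ESRP2, HNRNPM and SRSF1 had intervals on opposite sides of 0 in a pair of clones, against 8.72% of all genes tested. The median fitted difference of the 10 regulators was -0.07 with the clone block, with 4 positive and 6 negative. Over all genes tested the median was 0.01, and the 5th to 95th percentiles ran from -0.44 to 0.53, so each of the 10 lay inside that span.

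**Figure D3:**
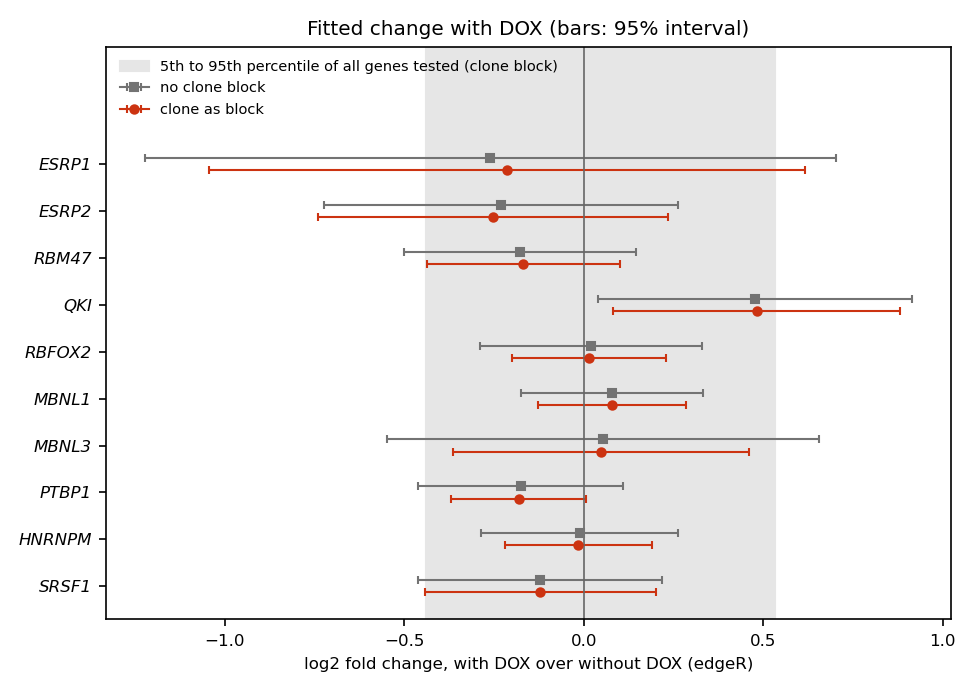
Log2 fold change with DOX over without DOX for the 10 regulators from edgeR, without and with the clone as a block, with 95% intervals as bars and the 5th to 95th percentile of all genes tested in grey. QKI is the highest at 0.48, and none of the 10 regulators has an adjusted p under 0.05 in either fit.

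Between clones, with DOX as a covariate, edgeR's test of the clone term called 802 of the 11732 genes (6.84%) and none of the 10 regulators. An unadjusted clone p under 0.05 was found for 24.8% of genes. The pairwise contrasts called 1.02% of genes for WT5 over WT2, 5.83% for WT37 over WT2 and 5.92% for WT37 over WT5, again with no regulator among them. MBNL3 had the smallest clone p of the 10. It averaged 9.59 CPM in WT5, against 14.7 CPM in WT2 and 15.9 CPM in WT37, and the WT5 minus WT2 difference was -0.66 (SE 0.24). Without the WT2 library with DOX, WT2 exceeded WT5 by only 0.34, and without the WT2 library without DOX by 0.93. Its clone term had an unadjusted p of 0.0257 and an adjusted p of 0.141 in edgeR's test. RBFOX2 averaged 111 CPM in WT37, against 89.5 CPM in WT2 and 84.1 CPM in WT5. The WT37 minus WT5 difference was 0.32 (SE 0.12), and the adjusted p of the clone term was 0.221. PTBP1 was lowest in WT37, at 590.5 CPM, against 634 CPM in WT2 and 658 CPM in WT5, with an adjusted p of 0.259. ESRP1 ranged from 2.20 CPM in WT2 to 4.27 CPM in WT37 (adjusted p = 0.502), and QKI from 20.2 CPM in WT5 to 22.1 CPM in WT37 (adjusted p = 0.947). After TMM scaling the fitted QKI level was lowest in WT37 instead, at -0.09 against WT2. The other 5 regulators had adjusted p-values of 0.672 to 0.909.

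ESRP1 varied most over the libraries among the 10, by 1.67 on the log2 scale from lowest to highest. The genes with the most similar profile of log2(CPM + 0.5) over the 6 libraries, of 11731 compared, were ARMC9 (Pearson r = 0.993), LIMK2 (0.988) and FAM78A (0.983). In all, 45 genes had an r above 0.9, and the part of counting error in a profile of 10 to 42 ESRP1 reads per library was not tested.

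Other splicing factors were looked up from lists of related genes. Of the 11732 genes tested, 6000 had a positive and 5732 a negative difference with the clone block. Genes of a list are measured in the same libraries, so their signs are not independent, and no list was tested as a set. Of 8 paralogs of the regulators, 4 were tested, all 4 had a positive fitted difference (median 0.09 with the clone block), and none passed for DOX. PTBP2, the PTB protein best known from neurons, and MBNL2 had the largest differences (0.12 and 0.11). PTBP2 was lowest in WT2, at 2.57 CPM with DOX and 2.57 CPM without DOX, and highest in WT37, at 7.44 CPM with DOX and 6.42 CPM without DOX, with an adjusted p of 0.0666 for the clone term in edgeR's test. PTBP3 was also highest in WT37 with DOX, at 343 CPM (clone term, adjusted p = 0.170). RBFOX1, RBFOX3, A1CF and MYEF2, relatives of RBFOX2, RBM47 and HNRNPM, had 0 to 5 reads in every library and were not tested.

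Of 12 SR and TRA2 proteins, which mostly promote exon inclusion, 11 were tested, 2 with a positive and 9 with a negative difference, a median of -0.08, and none passed for DOX. SRSF8 and SRSF6 had the largest differences, -0.20 and -0.15. SRSF8 stood at 82.3, 90.2 and 89.5 CPM in WT2, WT5 and WT37 with DOX, and at 93.9, 96.8 and 103 CPM without DOX. All libraries with DOX were below all without, though the adjusted p with the block was 0.411 in edgeR's test. The same held for SRSF2 and SRSF3, so for 3 of the 11, against 4.56% of all genes tested. The nearest libraries with and without DOX were close, at 398 and 403 CPM for SRSF2 and 455 and 457 CPM for SRSF3. These levels are without TMM scaling, whose factors ran from 0.951 to 1.075, so such small gaps may not hold after scaling. SRSF5 differed between clones (adjusted p = 0.0214), being 0.55 higher in WT37 than in WT2 on the log2 scale, and SRSF11 had the next smallest clone p (adjusted p = 0.365).

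Of 23 hnRNP proteins, a broad family that often represses exons, 22 were tested, with 11 differences in each direction, a median of 0.00, and none passed for DOX. SYNCRIP (-0.20) and HNRNPK (-0.14) had the largest differences. SYNCRIP was measured at 494, 488 and 487 CPM with DOX, and at 525, 566 and 550.1 CPM without DOX, in the clone order WT2, WT5 and WT37. All its libraries with DOX were below all without, with an adjusted p of 0.346 in the blocked edgeR fit. It was the only 1 of the 22 with such a separation, against 4.56% of all genes tested. HNRNPUL2 differed between clones (adjusted p = 0.00110), at 129 CPM with DOX and 134 CPM without DOX in WT37, and at 217 to 244 CPM in the other 4 libraries. HNRNPU had the next smallest clone p (adjusted p = 0.0662), and its last 500 exonic bases lie entirely opposite COX20.

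Of 27 other alternative splicing factors 15 were tested, 2 positive and 13 negative, with a median of -0.08, and none passed for DOX or for the clone term. CELF2 had the largest difference (-0.43, SE 0.18, adjusted p = 0.326 with the block). It stood at 15.9, 16.8 and 11.7 CPM in WT2, WT5 and WT37 with DOX, and at 25.0, 16.7 and 16.9 CPM without DOX, so the groups overlapped through WT5. RBM4 came next at 0.26 (adjusted p = 0.463). RBM38 had an adjusted p of 0.0992 for the clone term in edgeR's test.

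Splicing factor kinases phosphorylate SR proteins, and 6 of 7 were tested, 3 in each direction, with a median of -0.01 and none past the DOX threshold. SRPK1 (-0.22) and CLK1 (0.15) had the largest differences. CLK1 and CLK2 differed between clones (adjusted p = 0.00736 and 0.0184 in edgeR's test). CLK1 stood at 33.1 CPM with DOX and 24.6 CPM without DOX in WT37, and at 11.7 to 15.1 CPM in the other 4 libraries. CLK2 stood at 11.8 CPM with DOX and 12.56 CPM without DOX in WT37, and at 3.63 to 5.37 CPM in the others. Both kinases were thus highest in the WT37 libraries.

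The last list held 19 genes whose exons are known to switch in the epithelial-mesenchymal transition, for which the kit gives the whole gene's level and not the exon. All 19 were tested, 11 positive and 8 negative, with a median of 0.02, and none passed for DOX. MST1R, the receptor RON, was measured at 8.02, 10.2 and 6.46 CPM in WT2, WT5 and WT37 with DOX, and at 10.7, 15.9 and 11.3 CPM without DOX. All libraries with DOX were below all without, as for 4.56% of all genes tested, and the blocked difference was -0.66 (SE 0.19, adjusted p = 0.141). CD44, a cell surface receptor with epithelial and mesenchymal isoforms, was measured at 162, 149 and 178 CPM with DOX, and at 115, 143 and 128 CPM without DOX. All its libraries with DOX were above all without, as for 6.55% of all genes tested, and the blocked difference was 0.31 (SE 0.10, adjusted p = 0.198).

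**Figure D4:**
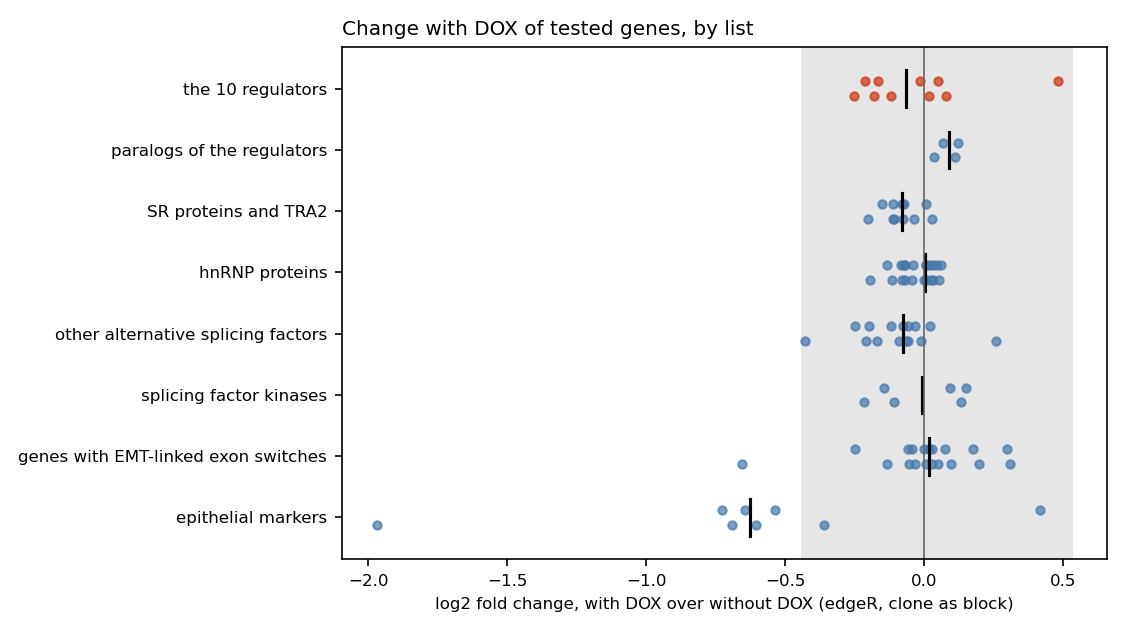
Log2 fold change with DOX over without DOX, from the blocked edgeR fit, for each tested gene of the lists, with the black line at each list's median and the grey band from the 5th to the 95th percentile of all genes tested (-0.44 to 0.53). The splicing lists centre between -0.08 and 0.09, and the epithelial markers centre at -0.63.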

How the data were processed

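Messenger RNA of 6 DLD-1 libraries was sequenced with a 3′ end kit. The authors deposited 1 table of raw counts, a row for each Ensembl gene. The submitters' processing notes name GRCh38 and DESeq2. No source used here gives the aligner, the counting program, the annotation or the strand setting. Besides 27264 gene rows, of which 3634 were at 0 throughout, 4 rows of reads given to no gene (unmapped 4.29% to 5.25%, multimapping 11.8% to 16.0%, outside features 8.72% to 11.7% and ambiguous 6.85% to 7.40% of reads) were left out of library sizes and tests. Symbols came from an identifier table (22056 identifiers) and GENCODE 29 (4858 more), and 350 stayed unnamed.

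The counts were fitted with edgeR 4.0.16 in R 4.3.3 (TMM scaling, filterByExpr, robust quasi-likelihood test, Benjamini-Hochberg adjustment over 11732 genes, threshold 0.05), first without and then with the clone as a block, and for clones with DOX as covariate. SEs are the log2 fold change over the square root of F. The biological coefficient of variation was 17.9% without and 10.9% with the block. Deviations from the group means correlated between the libraries of one clone (WT2 r = 0.488, WT5 r = 0.282, WT37 r = 0.534), and the clone names give the pairing. Within a clone, ratios carry exact binomial 95% intervals, which cover counting error only, since each side is 1 library. The kit's reads were not counted as molecules here, so the intervals may be too narrow even for counting error.

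DESeq2 1.42.0, other size factors, no filter, and leaving out each library or clone were the alternatives. The regulators and the lists were chosen with earlier results of these data known. All 10 regulators are named; each list gives the genes past a threshold, the 2 largest blocked DOX differences and the 2 smallest clone p-values, except that a few genes these rules pick are not reported here. Replicate clones differed beyond sampling noise in every pair.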

Additional observations from a re-analysis of the deposited data

Results flagged for a closer look

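3 regulators had counting intervals on opposite sides of 0 in a pair of clones, as did 1023 of the 11732 genes tested (8.72%), a share that depends on read depth. The difference between the clones was not tested, because each ratio compares 1 library with DOX against 1 library without. For ESRP2, the epithelial splicing factor, the log2 ratio in WT37 (-0.87) minus that in WT5 (0.34) was -1.22. For SRSF1, the SR protein, the log2 ratio in WT5 (-0.58) minus that in WT2 (0.29) was -0.87. For HNRNPM, the ratio in WT5 (-0.21) minus that in WT2 (0.23) was -0.44.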

How the results depend on the processing

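No regulator passed for DOX under any alternative run except QKI, in the blocked fit without WT5 (0.74, adjusted p = 0.0275), and none passed for the clone term. WT5 is the clone whose QKI ratio was -0.02, so leaving it out raises the QKI difference. The lowest adjusted p over the alternatives was 0.108 for ESRP2 and 0.110 for PTBP1. The count of genes called for DOX, 0 in the reported fit, was 152 with the replicate block, 206 without the filter, 57 with DESeq2, 155 with the block and RLE size factors, 518 with the block and no filter, and 133 with the block and DESeq2. Leaving out 1 library or clone gave 0 to 35 without the block (35 without the WT5 library with DOX). Leaving out 1 clone gave 8, 743 and 5 with the block (without WT2, WT5 and WT37). The clone count, 802, was 1783 without the filter and 441 with DESeq2, and ran from 129 without WT37 to 2286 without the WT5 library without DOX. The block changed no other call of a regulator.

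Leaving out 1 library or clone turned the sign of some differences. Without the block the DOX difference ran from -0.62 to 0.46 for ESRP1, -0.53 to 0.098 for ESRP2, -0.087 to 0.11 for RBFOX2, -0.0026 to 0.16 for MBNL1, -0.17 to 0.29 for MBNL3, -0.12 to 0.087 for HNRNPM and -0.31 to 0.11 for SRSF1. With the block it ran from -0.60 to 0.46 for ESRP1, -0.56 to 0.10 for ESRP2, -0.020 to 0.065 for RBFOX2, -0.0011 to 0.16 for MBNL1, -0.14 to 0.26 for MBNL3, -0.12 to 0.081 for HNRNPM and -0.31 to 0.11 for SRSF1. QKI (0.23 to 0.74), RBM47 (-0.32 to -0.013) and PTBP1 (-0.25 to -0.079) kept their sign. The fitted difference between the clones with the highest and the lowest fitted level (for QKI, WT2 over WT37) ran from -0.090 to 1.57 for ESRP1, -0.32 to 0.73 for ESRP2, -0.051 to 0.42 for RBM47, -0.23 to 0.52 for QKI, -0.057 to 0.18 for MBNL1, -0.018 to 0.30 for HNRNPM and -0.20 to 0.37 for SRSF1, and kept its sign for MBNL3 (0.34 to 0.93), RBFOX2 (0.24 to 0.39) and PTBP1 (0.15 to 0.33). The causes were not tested. Depth limits ESRP1 most, at 10 to 42 reads per library.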

Other observations

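MIR200CHG (ENSG00000257084, chr12:6963246-6964447, plus strand, GRCh38), the long noncoding host transcript of miR-200c and miR-141, was looked up after the data had been seen, because its microRNAs pair with the letters found in QKI. It had 8, 11 and 5 reads in WT2, WT5 and WT37 with DOX (1.28, 1.56 and 0.702 CPM), and 19, 14 and 27 reads without DOX (3.49, 2.31 and 3.77 CPM). All libraries with DOX were below all without, as held for 4.56% of all genes tested. The mean was 1.18 ± 0.436 CPM with DOX and 3.19 ± 0.773 CPM without DOX (SD, n = 3 each). The fitted difference was -1.46 (SE 0.44, unadjusted p = 0.00713, adjusted p = 0.568 in edgeR's test, and 0.141 with the clone block), so it did not pass the threshold. It passed in the blocked fit without WT5 (-1.94, adjusted p = 0.0290) and in the blocked fit without the filter on low counts (adjusted p = 0.0302). The former called 743 of 11893 genes (6.25%) and leaves out the clone where this transcript changed least. The latter called 518 genes. A link between this transcript and QKI was not tested. The level of a host transcript is not that of its mature microRNAs, which were not measured.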
